A study of Mus musculus with 12 samples.

Results

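The genes that bind, make and sense retinoic acid were followed while fibroblasts of mouse embryos (MEFs) were reprogrammed to induced pluripotent stem cells (iPSCs). The set held 9 genes: the retinoic acid binding protein genes Crabp1 and Crabp2, the retinol carrier gene Rbp4, the retinal dehydrogenase genes Aldh1a1, Aldh1a2 and Aldh1a3, and the receptor genes Rara, Rarb and Rarg. They were found by their symbols in a deposited expression table of 24098 genes. Crabp1 was chosen by its measured values, namely its large fall and its difference between the sorted fractions of all 4 sorted days, so its levels are a description only. Of the 24098 genes, 14178 reached 1 FPKM (fragments normalised to transcript length and sequencing depth) in at least 1 library, and 9 of the 9 retinoid genes were among these.

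The MEFs carried an IRES-EGFP reporter behind Oct4 and were infected with pMXs retroviruses for Oct4, Sox2, Klf4 and c-Myc (OSKM). Of the 12 mRNA libraries, D0 came from MEFs of day 0 (WT) and D3 from unsorted cells of day 3. On days 6 and 9, cells were sorted into fractions without (D6T-, D9T-) and with (D6T+, D9T+) the fibroblast surface protein Thy-1. On days 12 and 16 they were sorted into fractions with (D12S+, D16S+) and without (D12S-, D16S-) the pluripotency surface marker SSEA-1. The study treats the Thy-1- and SSEA-1+ fractions as the successful route and the others as the unsuccessful one. The remaining libraries came from iPSCs and from mouse embryonic stem cells (mESCs) of the ESD3 line. By the labels, MEFs were grown in medium with fetal bovine serum, and reprogramming cells, iPSCs and mESCs in a medium with serum replacement, LIF, bFGF, CHIR99021, N-2 and ascorbic acid. The methods of the study also list media with LIF and either serum or serum replacement for reprogramming cells and pluripotent lines, without saying which library had which. Between D0 and all later libraries, OSKM or the cell state and the medium changed together by the labels, and their effects cannot be told apart.

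Each condition had 1 library, so no difference has a replicate check and none was tested. Differences are given on the log2(FPKM + 1) scale and were counted when at least 2-fold on it. The deposited intervals of cuffdiff, which are modelled and hold no biological variation, overlapped in 90 of 90 differences between libraries that were examined for the 9 genes. In bulk samples, fewer cells of a type and less RNA per cell cannot be told apart.

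Retinoic acid is made from vitamin A. Rbp4 carries retinol in the blood and the membrane protein Stra6 takes it up, retinol is oxidised to retinal, and the Aldh1a enzymes oxidise retinal irreversibly to retinoic acid. In the cell, Crabp2 delivers retinoic acid to the nuclear receptors and Crabp1 holds it in the cytosol, while the Cyp26 enzymes break it down. The retinoic acid receptors bind DNA together with retinoid X receptors at paired short motifs near target genes. In pluripotent cells retinoic acid is a well known inducer of differentiation. Retinoids themselves were not measured in these libraries.

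Promoter sequences were searched for such paired motifs, to show the sequence at genes with a match and, beside it, that at Crabp1. The search read the 250 bases before each RefSeq start (build GRCm38.p6, which is not the mm9 build of the expression values), on both strands. It looked for direct repeats of a hexamer, namely AGGTCA itself or one of its known variants GGGTCA, then AGTTCA in the same role, and last the form GGTTCA, in any combination and with a spacer of 1, 2 or 5 bases, named DR1, DR2 and DR5. The table held 13 such windows for 7 of the 9 genes, without Crabp2 and Aldh1a3. A DR5 was present in 29 of 32851 windows of all genes (0.0883%), among them those of Rarb and of Cyp26a1, which encodes a retinoic acid hydroxylase. In the sequences below the capitals mark the DR5, and each sequence ends at the base before the start. The Rarb stretch is chr14:16575477-16575589 on the minus strand, with the repeat from 53 to 37 bases before the start. The Cyp26a1 stretch is chr19:37697716-37697807 on the plus strand, with the repeat read on the opposite strand from 32 to 16 bases before the start. The Crabp1 stretch is chr9:54764498-54764747 on the plus strand and holds none of the 3 repeats.
Rarb: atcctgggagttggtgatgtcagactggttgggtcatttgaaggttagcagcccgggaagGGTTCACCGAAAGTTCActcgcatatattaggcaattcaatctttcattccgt
Cyp26a1: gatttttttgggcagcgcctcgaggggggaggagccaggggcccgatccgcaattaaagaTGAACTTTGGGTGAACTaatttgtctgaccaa
Crabp1: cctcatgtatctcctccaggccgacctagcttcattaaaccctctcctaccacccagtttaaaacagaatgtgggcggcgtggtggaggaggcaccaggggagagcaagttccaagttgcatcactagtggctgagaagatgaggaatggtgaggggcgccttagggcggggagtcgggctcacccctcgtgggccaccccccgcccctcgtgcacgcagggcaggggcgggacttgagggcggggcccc
A DR1 was found in 54 windows of all genes (0.164%) and a DR2 in 57 (0.174%), with none in the 13 windows of the retinoid set. Further genes of the pathway had 62 windows for 46 genes. These held 1 DR1 (Bco1, not printed), 0 DR2 and 1 DR5, that of Cyp26a1. The Rarb match is made of GGTTCA and AGTTCA, and the Cyp26a1 match of AGTTCA repeated. Both thus depended on the variant forms chosen for the search, and the shares of all windows do not measure how unusual they are. These matches describe letters only, and their binding by a receptor was not measured.

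The libraries differed in total FPKM from 484968 in D16S+ to 648264 in D0, and in depth, estimated from the steps of low values relative to D0, from 0.966 in D9T+ to 1.56 in D6T-. The labels were checked against markers. The summed FPKM of 12 fibroblast markers ran from 63.5 in mESCs to 10057 in D0, and that of 10 pluripotent cell markers from 1.94 in D3 to 4895 in D16S+. Sums ran from 4.11 to 140 for keratinocyte, 66.7 to 1818 for simple epithelial, 15.7 to 146 for leukocyte, 18.0 to 125 for endothelial, 4.68 to 47.2 for neural crest and glial, and 1.91 to 32.4 for extraembryonic endoderm markers.

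Crabp1 (chromosome 9, 54612555 to 54620917 in mm9) was one of the most abundant messages of the starting fibroblasts. It was at 6195 FPKM in D0 and ranked 3 of the 14178 kept genes there. On the successful route it was at 116 FPKM in D3, 206 in D6T-, 206 in D9T-, 354 in D12S+ and 43.7 in D16S+. On the unsuccessful route it was at 2953 FPKM in D6T+, 3205 in D9T+, 1181 in D12S- and 965 in D16S-. Of the pluripotent cells, iPSCs held 12.7 FPKM and mESCs 54.2 FPKM. Every sorted fraction of the unsuccessful route was thus above every one of the successful route, and D0 was above all others. The rank was 9 in D6T+, 12 in D9T+, 61 in D12S- and 73 in D16S-, against 766 in D3 and 5397 in iPSCs. D0 was 489-fold above iPSCs by the ratio of FPKM. The deposited interval in D0 was 0 to 15119 FPKM, and that in iPSCs was 0 to 36.6 FPKM.

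Between the fractions of each day, fibroblast markers differed in sum in the same direction as Crabp1. Their summed level was 875 FPKM in D6T- against 4881 in D6T+, 665 in D9T- against 3432 in D9T+, 525 in D12S+ against 1308 in D12S-, and 81.4 in D16S+ against 932 in D16S-. Of the 12 markers, 11, 11, 8 and 9 were at least 2-fold lower in the successful fraction on days 6, 9, 12 and 16, respectively. The shares of all kept genes were 9.47%, 6.45%, 3.03% and 15.2%. Thy1, 1 of the 12, was itself sorted on for days 6 and 9, so its calls there followed from the sort. The part of the markers in the difference of Crabp1 was not tested. Over time the directions could differ. From D3 to D6T- and D12S+, Crabp1 rose from 116 to 206 and 354 FPKM, while the marker sum fell from 3491 to 875 and 525. From D6T+ to D9T+, Crabp1 rose from 2953 to 3205 FPKM, while the sum fell from 4881 to 3432. Both fell from D0 to D3, from D12S+ to D16S+ and from D9T+ to D16S-. The ratio of Crabp1 to the summed markers was not constant. It was 0.616 in D0, 0.605 in D6T+, 0.934 in D9T+, 0.903 in D12S- and 1.04 in D16S-, against 0.236 in D6T-, 0.310 in D9T-, 0.673 in D12S+ and 0.537 in D16S+. The lowest ratio was that of D3, at 0.0332. The sum weighs abundant markers most, and in D3 it was led by S100a4 (1344 FPKM), Col1a1 (798) and Col1a2 (662). From D0 to D3 the markers fell unevenly, from 2253 to 1344 FPKM for S100a4 and from 175 to 121 for Fbn1. Pdgfra fell from 38.0 to 0.740 FPKM and Dcn from 117 to 7.85. The ratio therefore does not show that Crabp1 fell more than each marker.

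Crabp1 on day 3 lay below both fractions of day 6. D6T+ had 25.5 times the FPKM of D3, a log2 difference of 4.66. This comparison was added after the values had been seen. Of the 9 genes, Crabp1 and Rbp4 were at least 2-fold higher in D6T+ than in D3, where 5.16% of all kept genes were, and 0 were lower, where 1.79% were. A position of D3 below both day-6 fractions was common, with 4224 of the 14178 kept genes (29.8%), and it included Crabp1, Crabp2, Aldh1a3, Rara and Rarg. Among the 1229 genes at least 2-fold lower in D3 than in D0, 430 (35.0%) were at least 2-fold higher in D6T+ than in D3. The fibroblast markers did so in 6 of 10 cases (Thy1, Col3a1, Pdgfra, Pdgfrb, Dcn and Lum), where D6T+ was sorted for Thy-1 itself.

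**Figure D1:**
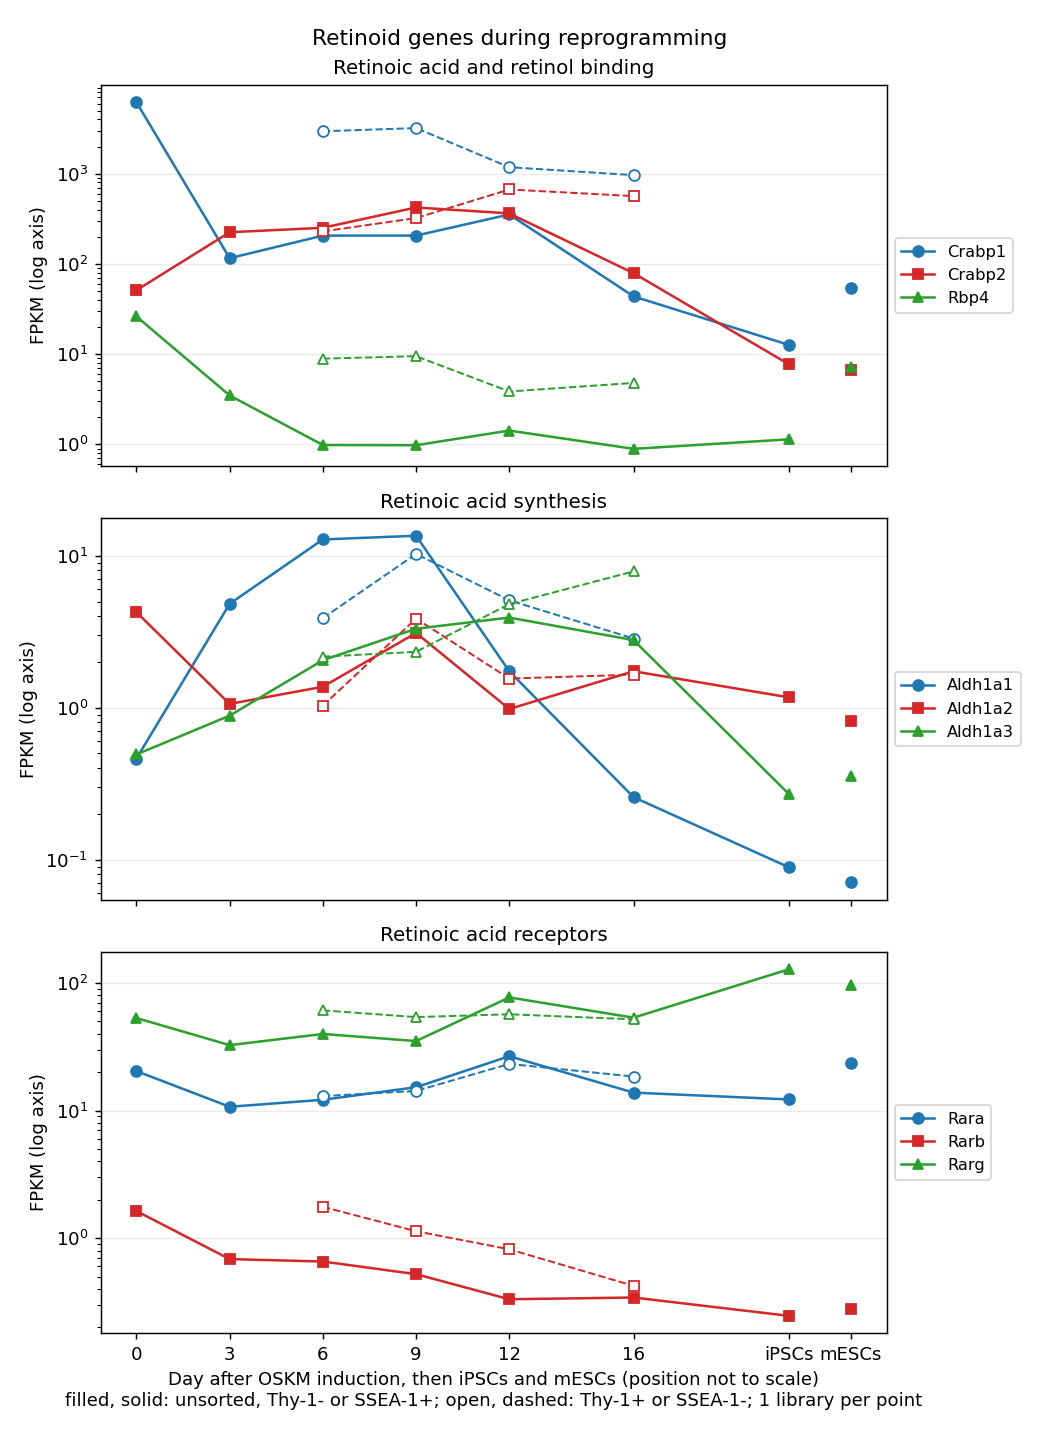
FPKM of the 9 retinoid genes (log axis) by day, then in iPSCs and mESCs, with 1 library per point and no error bars; filled points on solid lines are D0, D3, the Thy-1- and SSEA-1+ fractions and iPSCs, filled points without a line are mESCs, and open points on dashed lines are the Thy-1+ and SSEA-1- fractions. Crabp1 is highest in D0 (6195 FPKM), lowest in iPSCs (12.7 FPKM) and stays near 1000 FPKM or above on the dashed line, while Rarg stays between 32.5 and 128 FPKM throughout.

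Crabp2 (chromosome 3, 87752588 to 87757298), whose annotated protein matched that of Crabp1 in 101 of 137 aligned residues (73.7%), had a different course. It was at 51.1 FPKM in D0, 225 in D3, 252 in D6T-, 423 in D9T-, 363 in D12S+ and 79.0 in D16S+. On the unsuccessful route it was at 229 FPKM in D6T+, 323 in D9T+, 669 in D12S- and 565 in D16S-, and pluripotent cells had 7.72 FPKM (iPSCs) and 6.65 FPKM (mESCs). Thus all 8 sorted libraries and D3 were above D0, and both pluripotent libraries were below it. The fractions of days 6 and 9 were within 2-fold of each other (log2 differences of 0.13 and 0.39), whereas D16S+ was 2.82 below D16S- on the log2 scale. The value of D12S+ was 0.88 below that of D12S-.

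The balance of the messages for the binding proteins therefore differed between the libraries. FPKM is scaled to transcript length, so levels can be set against each other. Crabp1 had 121 times the FPKM of Crabp2 in D0 and 0.515 times in D3. The ratio stayed under 1 along the successful route, at 0.819 in D6T-, 0.488 in D9T-, 0.973 in D12S+ and 0.553 in D16S+. It was 12.9 in D6T+, 9.94 in D9T+, 1.77 in D12S- and 1.71 in D16S-, above 1 in each. In iPSCs it was 1.64 and in mESCs 8.15, both at low levels of the pair.

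Rbp4 (chromosome 19, 38191110 to 38199811, minus strand) was far lower than Crabp1 but had a similar order of libraries. It was at 26.2 FPKM in D0, 3.48 in D3, 0.984 in D6T-, 0.980 in D9T-, 1.42 in D12S+ and 0.892 in D16S+. On the unsuccessful route it was at 8.92 FPKM in D6T+, 9.50 in D9T+, 3.86 in D12S- and 4.80 in D16S-. The iPSCs held 1.14 FPKM and the mESCs 7.27 FPKM. D0 was above all other libraries, and all 4 unsuccessful fractions were above all 4 successful ones. On day 12 the difference was only just past the threshold (0.369 times the FPKM of D12S-), and it was under it, at -0.98, when all libraries were scaled to the same total FPKM. Rbp4 is also made by extraembryonic endoderm, whose 10 markers summed to between 1.91 and 8.49 FPKM in the other 11 libraries and to 32.4 FPKM in mESCs. In mESCs, 3 of the 10 (Gata4, Gata6 and Amn) were at least 2-fold above iPSCs, as was Rbp4, while the defining markers Ttr and Afp were at most at 0.09 and 0.25 FPKM in any library. The part of these cells in the level of Rbp4 was not tested.

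The retinal dehydrogenase genes were low throughout, and each had its highest level in a different library. Aldh1a1 (chromosome 19, 20676451 to 20717952) was at 0.463 FPKM in D0, 4.83 in D3, 12.8 in D6T-, 13.5 in D9T-, 1.74 in D12S+ and 0.258 in D16S+. It was at 3.89 FPKM in D6T+, 10.3 in D9T+, 5.09 in D12S- and 2.85 in D16S-, and at 0.0891 FPKM in iPSCs and 0.0710 in mESCs. Its high libraries were therefore those of days 6 and 9, with low values at both ends of the course. The successful fraction had the higher value on day 6 (log2 difference of 1.50), and the lower value on days 12 (-1.15) and 16 (-1.62). Aldh1a3 (chromosome 7, 73535778 to 73572403, minus strand) was at 0.493 FPKM in D0, 0.887 in D3, 2.06 in D6T-, 3.31 in D9T-, 3.92 in D12S+ and 2.79 in D16S+. On the other route it was at 2.17 FPKM in D6T+, 2.33 in D9T+, 4.81 in D12S- and 7.90 in D16S-, and it was at 0.270 FPKM in iPSCs and 0.355 in mESCs. Here the highest values were those of the SSEA-1- fractions, and D3 and all 8 sorted libraries were above D0. Aldh1a2 (chromosome 9, 71063596 to 71144050), the main enzyme of the early embryo, was highest in D0 at 4.25 FPKM, followed by D9T+ at 3.86 FPKM and D9T- at 3.11 FPKM. The other 9 libraries held between 0.821 FPKM (mESCs) and 1.74 FPKM (D16S+).

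The summed FPKM of the Aldh1a genes ran from 1.25 in mESCs to 19.95 in D9T-. Aldh1a2 held 81.6% of it in D0, Aldh1a1 held 71.3% in D3, 78.9% in D6T- and 67.8% in D9T-, and Aldh1a3 held 63.7% in D16S- and 58.3% in D16S+. The leading enzyme gene thus differed between D0, the days 3 to 9 and day 16. The annotated proteins of the 3 genes were 67.5% to 72.3% identical in pairs.

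Of the receptor genes, Rarg (chromosome 15, 102065369 to 102087948, minus strand) was the most abundant in all 12 libraries. It was at 53.0 FPKM in D0, 32.5 in D3, 39.8 in D6T-, 35.0 in D9T-, 76.95 in D12S+, 53.4 in D16S+ and 128 in iPSCs. It was at 60.9 FPKM in D6T+, 53.9 in D9T+, 56.8 in D12S-, 51.8 in D16S- and 96.0 in mESCs. Both pluripotent libraries were the highest and D3 was the lowest, and no fraction pair was 2-fold apart. Rara (chromosome 11, 98789132 to 98836256) lay between 10.7 FPKM in D3 and 26.6 FPKM in D12S+. It was at 20.4 FPKM in D0, 12.2 in iPSCs and 23.5 in mESCs, and its fractions differed by at most 0.39 on the log2 scale, on day 16.

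Rarb (chromosome 14, 17263356 to 17651381, minus strand), a classical target gene of retinoic acid, was low. It was at 1.63 FPKM in D0, 0.686 in D3, 0.656 in D6T-, 0.522 in D9T-, 0.332 in D12S+, 0.343 in D16S+ and 0.246 in iPSCs. It was at 1.76 FPKM in D6T+, 1.13 in D9T+, 0.818 in D12S-, 0.423 in D16S- and 0.277 in mESCs. On each of the 4 days the unsuccessful fraction had the higher value, by log2 differences of 0.74, 0.49, 0.45 and 0.08 in day order, all under the threshold. By the plain ratio of FPKM it had 2.68, 2.17, 2.46 and 1.23 times the value of the successful fraction. The pseudocount of 1 shrinks ratios at such low levels, so staying under the threshold does not show that the fractions were alike. The DR5 printed for its promoter thus stands at a gene of at most 1.76 FPKM in these libraries.

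The summed receptor level ran from 43.9 FPKM in D3 to 140 FPKM in iPSCs. Rarg held 69.0% (D9T-) to 91.1% (iPSCs) of it, and Rarb held at most 2.33% (D6T+). Rarg had 2.60 times the FPKM of Rara in D0, 10.5 times in iPSCs and 4.09 times in mESCs. The annotated receptor proteins were 73.7% to 80.0% identical in pairs.

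**Figure D2:**
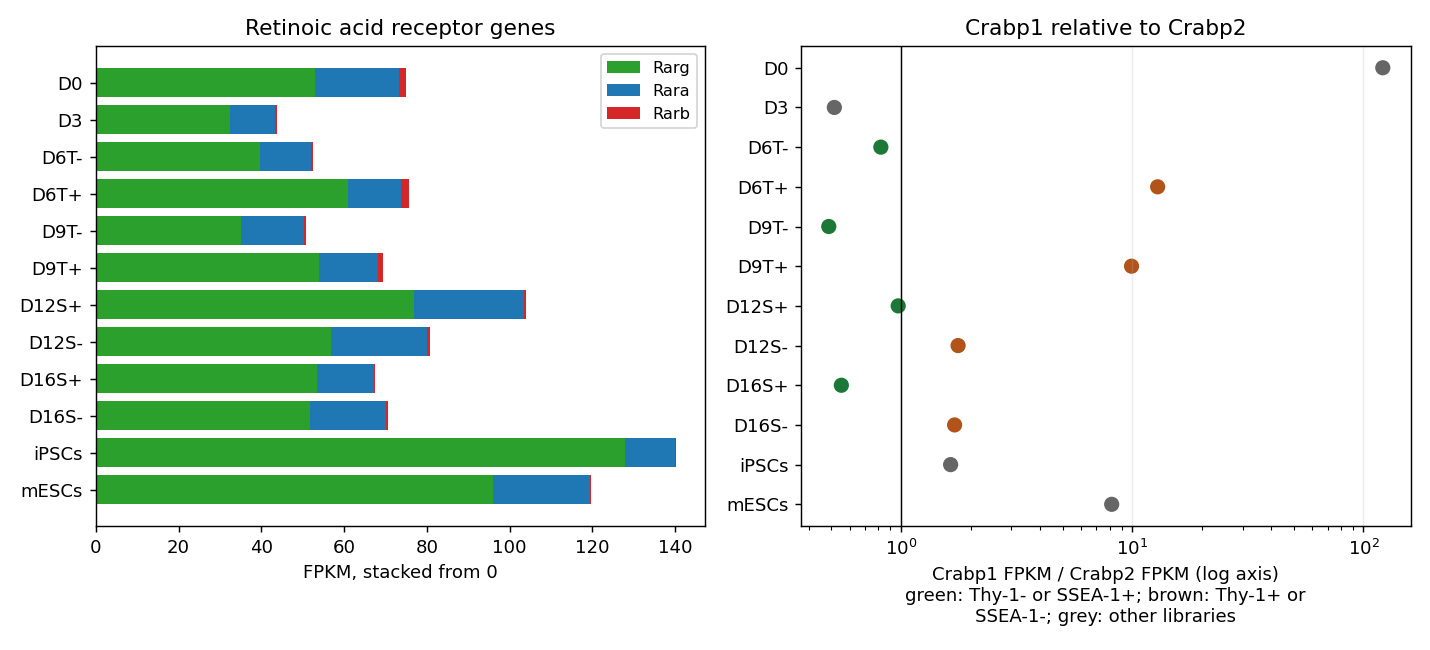
Left, FPKM of Rarg, Rara and Rarb stacked from 0 in each of the 12 libraries; right, the ratio of Crabp1 FPKM to Crabp2 FPKM on a log axis, with green points for Thy-1- and SSEA-1+ fractions, brown points for Thy-1+ and SSEA-1- fractions, grey points for the other libraries and a line at 1. The receptor bar is longest in iPSCs (140 FPKM), and the green points lie left of the line (0.488 to 0.973) and the brown points right of it (1.71 to 12.9).

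Against D0, the number of genes that were at least 2-fold apart can be read beside the share of all kept genes. Crabp1 was chosen for its large fall, so its place among the lower genes was given by that choice. In D3, Crabp2 and Aldh1a1 were higher (2 of 9, against 5.76% of all genes), and Crabp1, Rbp4 and Aldh1a2 were lower (3 of 9, against 8.67%). In D16S+, only Aldh1a3 of the 9 was higher (20.0% of all genes), and Crabp1 and Rbp4 were lower (20.9%). In D16S-, Crabp2, Aldh1a1 and Aldh1a3 were higher (12.8% of all genes), and Crabp1 and Rbp4 were lower (11.4%). In iPSCs, Rarg alone of the 9 was higher (18.7% of all genes), and Crabp1, Crabp2, Rbp4, Aldh1a2 and Rarb were lower (21.6%). For Rarb the log2 difference of -1.08 became -0.93 with all libraries scaled to the same total. The median difference of the 9 genes was -0.69 in D3, -0.53 in D16S+, -0.14 in D16S- and -1.08 in iPSCs, against -0.02, 0.05, 0.00 and 0.03 over all kept genes. D0 had the largest total FPKM, and scaling to one total moved the median of all genes to 0.12, 0.35, 0.19 and 0.18. It moved the calls of all genes from 816 higher and 1229 lower to 1152 and 888 in D3, from 2835 and 2957 to 3988 and 2095 in D16S+, and from 1821 and 1620 to 2303 and 1075 in D16S-. The crossings of D0 by Rara and Rarg in D16S- were small (-0.14 and -0.03) and turned positive under this scaling (0.15 and 0.26).

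The sorted fractions of each day were then compared, always as the successful minus the unsuccessful fraction. On day 6, Aldh1a1 was at least 2-fold higher (2.93% of all genes), and Crabp1 (-3.83) and Rbp4 (-2.32) were lower (9.47%). On day 9, 0 of the 9 were higher (1.81% of all genes), and Crabp1 (-3.95) and Rbp4 (-2.41) were lower (6.45%). On day 12, 0 were higher (4.79% of all genes), and Crabp1 (-1.74), Rbp4 and Aldh1a1 were lower (3.03%). On day 16, 0 were higher (11.8% of all genes), and 5 were lower (15.2%), namely Crabp1 (-4.43), Crabp2, Rbp4 (-1.62), Aldh1a1 and Aldh1a3 (-1.23). Crabp1 and Rbp4 were lower on all 4 days, as were 152 of all kept genes (1.07%). Crabp1 was chosen for this difference, so its call on each day was given by the choice. Day 16 thus had more of the 9 genes apart than the earlier days, on a day when more of all genes were apart. Days 6 and 9 were sorted on another marker than days 12 and 16, and the effects of marker and time cannot be told apart across this change.

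**Figure D3:**
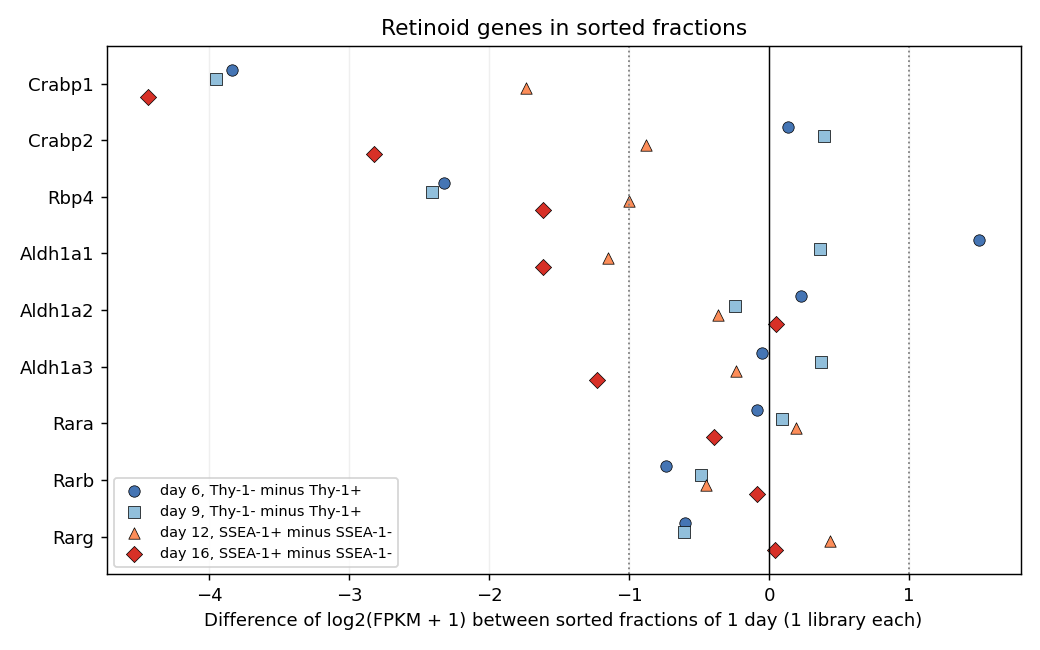
Differences of log2(FPKM + 1) between the sorted fractions of 1 day (x axis) for the 9 retinoid genes (y axis), with 1 marker shape per day, a solid line at 0 and dotted lines at 2-fold. Crabp1 and Rbp4 lie left of 0 on all 4 days, Aldh1a1 runs from 1.50 on day 6 to -1.62 on day 16, and the receptor genes lie between the dotted lines.

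On the log2(FPKM + 1) scale, the iPSCs and mESCs were less than 2-fold apart for most of the set. Between iPSCs and mESCs, 0 of the 9 genes were at least 2-fold higher in iPSCs (6.79% of all genes), and Crabp1 and Rbp4 were lower (7.41%), by 2.01 and 1.95 on the log2 scale. Rara differed by -0.89. The other genes of the set lay within 0.41 of each other. Several of these were near the floor in iPSCs and mESCs, namely Aldh1a1 (0.0891 and 0.0710 FPKM), Aldh1a3 (0.270 and 0.355), Rarb (0.246 and 0.277) and Aldh1a2 (1.17 and 0.821). At such levels the pseudocount of 1 keeps differences small, so their closeness cannot show that the cells were alike for these genes.

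Another 60 genes of the pathway were in the table, of which 46 were kept. Between iPSCs and D0, 9 of the 46 were at least 2-fold higher (18.7% of all kept genes) and 18 lower (21.6%), with a median of -0.52 against 0.03 over all kept genes. Between D16S+ and D16S-, 3 were higher (11.8% of all) and 18 lower (15.2%), with a median of -0.43 against -0.02. On day 6, 0 were higher (2.93% of all) and 7 lower (9.47%). On day 9, 0 were higher (1.81%) and 7 lower (6.45%). On day 12, 3 were higher (4.79%) and 6 lower (3.03%).

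Of the transport and storage genes, 4 of 8 were kept. Stra6, the receptor through which cells take up retinol from Rbp4, was at 65.8 FPKM in D0 and 1.67 FPKM in D3. The unsuccessful fractions had more, with 13.0 FPKM in D6T+ against 1.66 in D6T-, 5.20 in D9T+ against 1.09 in D9T-, 6.59 in D12S- against 2.83 in D12S+, and 7.08 in D16S- against 1.20 in D16S+. In pluripotent cells Stra6 was at 1.18 FPKM (iPSCs) and 2.90 FPKM (mESCs), so D0 was above all other libraries for Stra6 as for Rbp4.

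Of the 20 genes that convert retinol and retinal, 12 were kept, and 4 were lower (21.6% of all genes) and 0 higher (18.7%) in iPSCs than in D0. Dhrs3, which reduces retinal back to retinol, was at 57.2 FPKM in D0, 11.7 in D3, 14.3 in D16S+, 47.8 in D16S- and 2.04 in iPSCs. Rdh10, which oxidises retinol, was highest in D3 at 14.1 FPKM, with 3.74 FPKM in D16S+ and 12.6 FPKM for D16S-. The reductase gene Dhrs4 had the opposite order on that day, with 41.6 and 14.8 FPKM in D16S+ and D16S-, respectively. Adh7, a retinol-oxidising alcohol dehydrogenase, was at 1.33 FPKM in D0, 110 in D3, 189 in D9T+ and 0.152 in iPSCs.

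All 3 breakdown genes were examined. Cyp26b1 was at 2.84 FPKM in D0, 3.11 in D3, 6.10 in D6T-, 5.06 in D9T-, 9.13 in D12S+ and 2.09 in D16S+. On the unsuccessful route it was at 25.5 FPKM in D6T+, 39.2 in D9T+, 21.3 in D12S- and 27.9 in D16S-, and it was at 0.791 FPKM in iPSCs and 0.439 in mESCs. All 4 unsuccessful fractions were thus above every other library. Cyp26a1, whose promoter carries the DR5 printed above, was at most at 1.45 FPKM (D16S+), and Cyp26c1 was at most at 0.784 FPKM (D16S-). Rarres1 and Rarres2, named after their response to retinoids and picked out here after their values had been seen, were with Cyp26b1 the further genes that were lower in the successful fraction on all 4 days. Their smallest differences of the 4 days were -1.24 and -1.18, and that of Cyp26b1 was -1.14.

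Among the retinoid X receptors and the alternative carrier route, 4 of 5 genes were lower in iPSCs than in D0, against 21.6% of all genes. Rxra, a partner of the retinoic acid receptors, was at 24.6 FPKM in D0, 8.86 in D16S+, 22.2 in D16S- and 9.58 in iPSCs. Fabp5, which can bring retinoic acid to the receptor Ppard, was at 72.3 FPKM in D0, 312 in D12S+, 18.0 in iPSCs and 56.5 in mESCs. Ppard was at 95.3 FPKM in D0 and between 16.7 FPKM (D16S+) and 63.9 FPKM (D6T+) elsewhere.

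The coregulators, which bind receptors with or without ligand, had 4 of 9 genes at least 2-fold higher in iPSCs than in D0 (18.7% of all genes) and 1 lower (21.6%). The coactivator Ncoa3 was at 7.00 FPKM in D0, 46.6 in D16S+, 11.8 in D16S-, 96.8 in iPSCs and 36.2 in mESCs. Ncoa2 was also higher, at 5.07 FPKM in D0, 19.3 in iPSCs and 7.71 in mESCs. The other higher genes were Ncor1 (16.0, 53.6 and 19.9 FPKM in the same order) and Ep300 (10.8, 30.2 and 20.6 FPKM). Between iPSCs and mESCs, 5 of the 9 coregulators were at least 2-fold higher in iPSCs (6.79% of all genes) and 0 lower (7.41%).

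The target genes differed in both directions. Between iPSCs and D0, 4 of 19 kept targets were higher (18.7% of all genes) and 9 lower (21.6%), with a median of -0.75 against 0.03 over all genes. Between D16S+ and D16S-, 1 was higher (11.8% of all) and 11 lower (15.2%), with a median of -1.26 against -0.02. Stra8, a retinoic acid response gene that germ cells need for meiosis, was at 0.0352 FPKM in D0, 1.76 in D12S+, 12.5 in D16S+, 0.776 in D16S-, 36.7 in iPSCs and 138 in mESCs. The homeobox gene Cdx1 was listed at 0 in D0, and was at 2.75 FPKM in D16S+, 1.29 in D16S-, 28.0 in iPSCs and 19.8 in mESCs. In contrast, the nuclear receptor gene Nr2f1 was at 13.7 FPKM in D0, 0.253 in D16S+, 2.86 in D16S- and 0.129 in iPSCs.

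**Figure D4:**
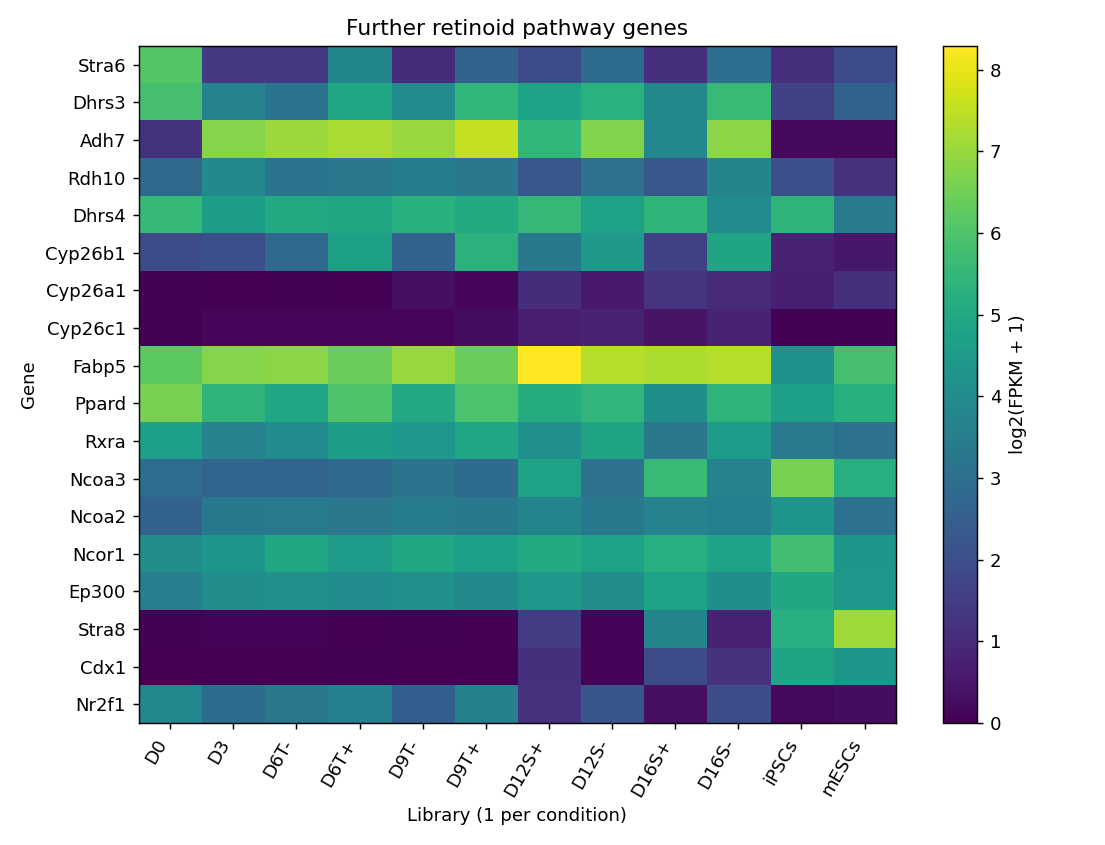
Colour gives log2(FPKM + 1), from 0 (dark) to over 8 (bright), of further pathway genes (rows) in the 12 libraries (columns). Cyp26b1 is brightest in the Thy-1+ and SSEA-1- fractions (21.3 to 39.2 FPKM), Stra6 in D0 (65.8 FPKM), Ncoa3 in iPSCs (96.8 FPKM), and Stra8 and Cdx1 in iPSCs and mESCs.

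Finally, the genes with the most similar courses were sought for each member, by the Pearson correlation of log2(FPKM + 1) over the 12 libraries among 8804 genes of at least 10 FPKM in 1 library. The libraries share a route and, in part, fibroblast content, so the values are a description. For Crabp1 they were Col6a2 (0.973), Stc1 (0.972), Mmp2 (0.971), Slit3 (0.971) and Igfbp4 (0.970), of which Col6a2 and Mmp2 encode a matrix collagen and a matrix protease. For Crabp2 they were Msln (0.985), Cdh13 (0.981) and C1qtnf1 (0.980), and Msln, which encodes the surface protein mesothelin, had 1051 FPKM in D16S- but 6.17 FPKM in iPSCs. Rbp4 was most like Pdgfrb (0.971), Dkk3 (0.970) and Tmbim6 (0.958), Rarb like Ggcx (0.977), Adcy2 (0.976) and Dcn (0.969), and Rarg like Zfp219 (0.960), Zfp687 (0.922) and Lrfn1 (0.921). Aldh1a1 was most like Tox3 (0.974), Prkcb (0.970) and Ebag9 (0.968), and Aldh1a3 like Slc25a48 (0.971), Taz (0.955) and Nccrp1 (0.952). The highest values were lower for Aldh1a2 (Ddx24 at 0.835, Cnpy2 at 0.779 and Wnt5b at 0.774) and for Rara (Plcg1 at 0.858, Zfp688 at 0.854 and Pkm at 0.843). With Spearman correlation in place of Pearson, at most 1 of the genes named for any member was named again.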

How the data were processed

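mRNA-Seq libraries of 12 conditions were prepared by the authors with a TruSeq kit, stranded per the labels and not called so in the methods. The authors mapped reads to mm9 with STAR, removed reads with more than 2 mismatches or with several loci, and ran cuffdiff. Versions, annotation and scaling are not given in the sources used here. The deposited values are FPKM per gene with an interval for each. Removal of reads with several loci can lower genes that have near-identical copies. Total fragments are unknown, so no counting interval is given.

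Each column was assigned to a label through its day and its "pos" or "neg", read as the presence or absence of the marker sorted on. A pseudocount of 1 was added before taking log2, and a minimum of 1 FPKM in at least 1 library was required. With 1 library per condition no test was run. The 9 members, the further pathway lists and the marker lists were chosen with earlier results of these data known. Of each further list, up to 5 genes were named, those furthest apart between D0 and iPSCs or between D16S+ and D16S- (at least 2-fold, at least 10 FPKM in 1 library), with all breakdown genes. Genes that met this rule but are not reported here were left out. The 3 most similar genes were named for each member (5 for Crabp1). Relative depth came from the most common ratio of FPKM values under 0.5. Positions and protein identities are from GENCODE M1 (NCBIM37, the mm9 assembly), with the longest annotated coding transcript per gene, and promoters from RefSeq (GRCm38.p6). The functions were tested on simulated data. Alternatives were a pseudocount of 0.1, scaling to the same total FPKM or by the median of ratios, a threshold of 4-fold, a minimum of 5 FPKM, no filter, and Spearman correlation. Python 3.11.15, pandas 2.3.3, numpy 2.4.6, biopython 1.88 and matplotlib 3.10.9 were used.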

Additional observations from a re-analysis of the deposited data

Results flagged for a closer look

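Aldh1a1 differed between the sorted fractions in opposite directions on different days. On the log2(FPKM + 1) scale, the successful minus the unsuccessful fraction gave 1.50 on day 6 and 0.37 on day 9, but -1.15 on day 12 and -1.62 on day 16. Whether the days differ was not tested, for want of replicate libraries. Differences of at least 2-fold in opposite directions on 2 days were found in 163 of the 14178 kept genes (1.15%), and in 1 of the 55 kept genes of the retinoid set and the further pathway lists. The sort was on Thy-1 on days 6 and 9 and on SSEA-1 on days 12 and 16, and the effects of marker and time cannot be told apart.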

How the results depend on the processing

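No paired analysis was possible because each condition had 1 library. Of 120 recomputed counts of the 9 genes, 106 stayed within 1.5 times the reported count and 14 moved, and no result reversed direction past a threshold. A threshold of 4-fold left 1 gene higher in D3 than in D0, 0 higher in D16S+ than in D0, 0 higher and 3 lower in iPSCs than in D0, 0 higher in D6T- than in D6T+, 0 lower in D12S+ than in D12S-, 2 lower in D16S+ than in D16S-, 1 lower in iPSCs than in mESCs and 1 higher in D6T+ than in D3. With a pseudocount of 0.1, 4 genes were lower in D16S+ than in D0, 4 lower in D16S- than in D0 and 4 higher in D6T+ than in D3. With the same total FPKM, 2 genes were higher in D16S+ than in D0, since Crabp2 came to 1.03, and with a minimum of 5 FPKM, 3 were lower in iPSCs than in D0. Of 270 recomputed log2 differences, 254 kept their direction and side of the threshold. Absolute depth is unknown, so the precision of levels near or under 1 FPKM cannot be given. These include Rarb, Aldh1a2, Rbp4 in the successful fractions (0.892 to 1.42 FPKM), and Aldh1a1 (0.463 FPKM) and Aldh1a3 (0.493 FPKM) in D0. The Rbp4 calls between fractions and the differences of Aldh1a1 and Aldh1a3 from D0 carry this limit.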
